A study of Mus musculus with 12 samples.

Results

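AP-1 is the family of paired transcription factors built from Fos-type and Jun-type proteins, and Batf, Batf3 and Atf3 are related factors that pair with Jun-type proteins. RNA of 10 such genes was followed here in mouse natural killer (NK) cells: the Fos-type genes Fos, Fosb, Fosl1 and Fosl2, the Jun-type genes Jun, Junb and Jund, and Batf, Batf3 and Atf3. They were taken by gene symbol from a table of 55487 features, of which 12364 were tested after a filter on low values (log2 CPM above 0 in at least 4 samples, where CPM is a gene's reads per M of library reads, M standing for mega). All 10 passed that filter. Fosb, Fosl1 and Batf3 were below 0 in every unstimulated sample and passed only through the stimulated groups.

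Every sample was of NK cells primed with the cytokine IL-15, from the strain B6.129S4-Ifngtm3.1Lky/J with the genotype mut/mut, in which a yellow fluorescent protein (YFP) reporter sits at the interferon gamma gene Ifng, so the controls carry the reporter allele too. One group was left unstimulated. In the other groups cells had received an antibody to the NK cell surface receptor NK1.1 for 6 h and were divided into those without reporter signal (YFP-) and those with it (YFP+). Each of the 3 groups held 4 samples, labelled f2, m2, m3 and m4, where f2 is marked F in its title. The labels give no age, do not say how IL-15 was given beyond the prefix HD, and do not say whether samples came from separate mice, so p-values measure only the spread between these samples. Bulk RNA was measured, and in such samples fewer cells of a type and less RNA per cell cannot be told apart.

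Fos-type proteins bind DNA mainly in a pair with a Jun-type protein, while Jun-type proteins can also pair with each other. The pairs bind a short palindrome, the AP-1 site, in the control regions of cytokine, receptor and cell cycle genes. In lymphocytes Fos and Jun are classical immediate-early genes, switched on within minutes of receptor signalling and soon off again, whereas Fosl1, Fosl2 and Junb RNA tends to last longer. Batf and Batf3 lack the activating domains of Fos and, paired with a Jun-type protein, bind with Irf4 or Irf8 at composite sites. Atf3 is induced by stress and by immune receptors and acts mostly as a repressor.

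Libraries held 32.1 to 54.2 M reads, so that 3 reads, the smallest level taken as shown, were worth 0.0553 to 0.0933 CPM. Features of the ribosomal RNA kind took 27.4 to 35.3% of reads in the unstimulated group. The share was 15.9 to 30.3% among YFP- samples and 13.7 to 29.8% among YFP+ samples, with m3 the highest of each stimulated group. Mitochondrial transcripts took 0.320 to 0.418% of reads in YFP+ samples, less than in any YFP- (0.629 to 0.861%) or unstimulated sample (0.587 to 0.951%). Ifng, which carries the reporter, rose by 3.53 (SE 0.13, in log2) in YFP- and by 6.39 in YFP+ over unstimulated samples. All 9 NK markers, among them Ncr1 and Eomes, had reads in every group, with a summed level of at least 9572 CPM. In each stimulated group 2 of the 9 were higher and 5 lower than in unstimulated samples, and 1 was higher and 4 lower in YFP+ than in YFP- samples. Eomes fell by 0.63 in YFP- and 1.41 in YFP+ samples, and Ncr1 was lower in YFP+ than in YFP- by -0.85 (adjusted p = 0.00029). Tbx21 rose by 1.28 in YFP- and 1.34 in YFP+ samples, and Klrk1 by 0.58 and 0.33, the latter a call lost without f2, m2 or m4. Nkg7 was higher in YFP+ than in YFP- by 0.64. Klrb1c, which encodes NK1.1 itself, fell by 2.04 in YFP- and by 5.64 in YFP+ samples. Summed markers reached at most 106 CPM for T cells (8 genes), 4.19 CPM for B cells (6), 60.5 CPM for myeloid cells (8) and 17.5 CPM for dendritic cells (4). Among T cell markers Cd6, at most 0.973 CPM in any unstimulated sample, rose by 4.17 in YFP- and 4.685 in YFP+ samples. Cd3g and Cd3d fell by 1.22 and 0.77 in YFP+ samples. Myeloid markers, mostly Cd68, summed to 52.9 to 60.5 CPM before stimulation, to 27.3 to 44.4 CPM without reporter signal and to 14.7 to 24.1 CPM with it. Their part in the results below was not tested.

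After 6 h of stimulation the family had split into 3 kinds of gene. Fosb, Fosl1, Junb, Batf3 and Atf3 were higher in both stimulated groups. Fos, Fosl2 and Jun did not pass the test in YFP- samples (0.28, -0.06 and -0.14 in log2) and were lower in YFP+ samples. Jund and Batf passed no test in any comparison. In YFP- against unstimulated samples 5 of 10 members passed an adjusted p under 0.05 in limma, all 5 higher, where 51.1% of all genes tested passed, 30.2% higher and 20.9% lower. In YFP+ against unstimulated samples 8 of 10 passed, 5 higher and 3 lower, where 60.8% of all genes passed, 27.5% higher and 33.3% lower. Between YFP+ and YFP- samples 3 of 10 passed, all 3 lower in YFP+, where 21.8% of all genes passed, 3.28% higher and 18.5% lower. That split rests on the scaling: 405 genes were higher and 2286 lower on the deposited scale, and 1505 and 1491 after centring each sample on its median. For YFP- over unstimulated samples 3735 and 2586 genes became 3273 and 3291 with such centring, and 3072 and 3444 without ribosomal RNA features in the totals. For YFP+ over unstimulated samples 3400 and 4122 became 4122 and 3785 with centring, and 2856 and 4906 without those features. No member was called lower in YFP- than in unstimulated samples or higher in YFP+ than in YFP- samples, and by limma none was so at an unadjusted p under 0.05 (0 of 10 in each case, and 0 with voom weights). The shares of members called lie near those of all genes, so the counts are not read as a result about the family. Groups did not overlap for 5, 8 and 2 of the 10 members in the 3 comparisons, where they did not for 52.7%, 54.7% and 22.1% of all genes tested. Those counts are likewise not read as a result about the family. The first and second comparisons share the unstimulated samples. The median log2 difference over the 10 members was 0.74, 0.35 and -0.26 in that order, beside 0.14, -0.03 and -0.19 over all genes tested. Fosb, Fosl1 and Batf3, which passed the filter only through the stimulated groups, are among the 5 called higher and enter these medians.

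**Figure D1:**
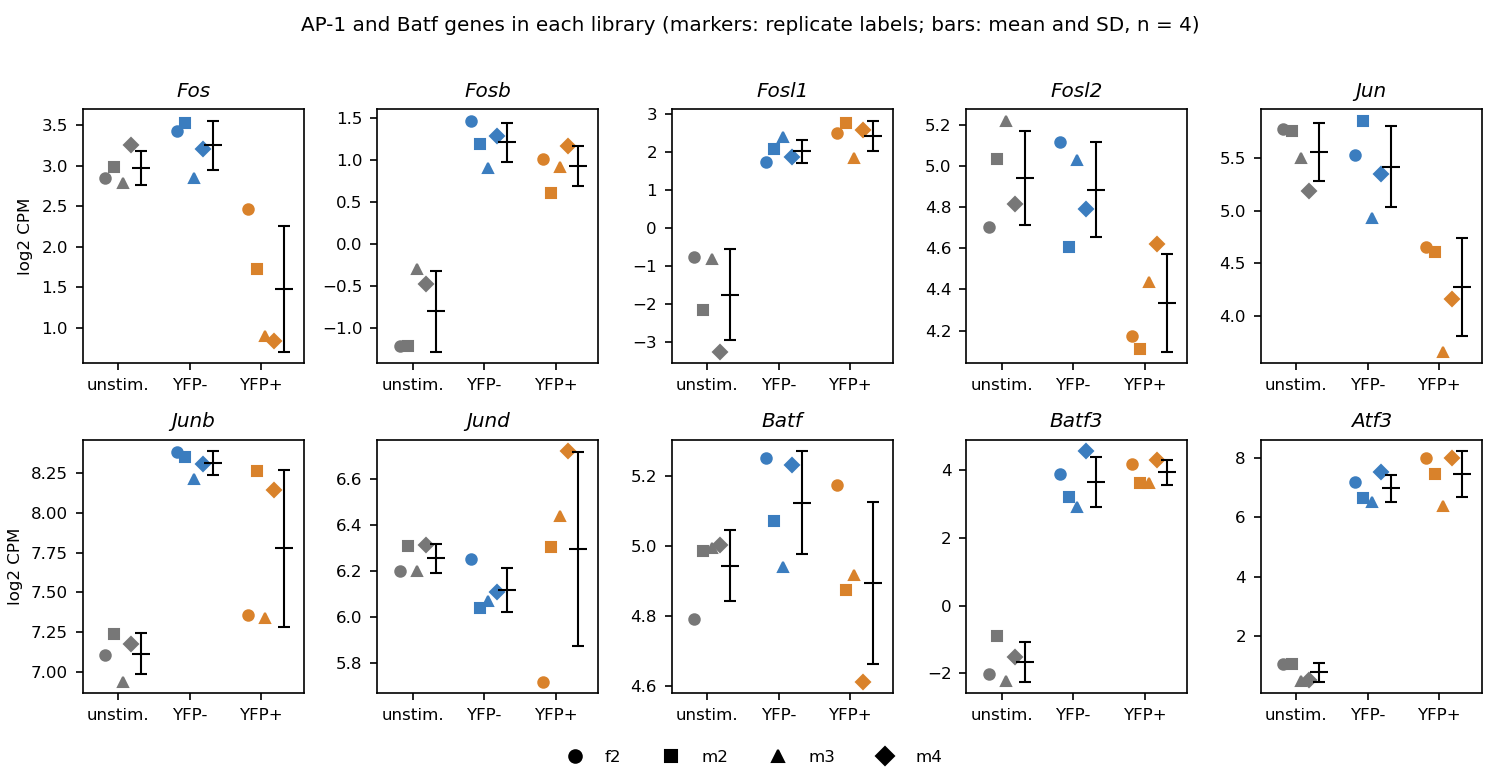
Level of each of the 10 genes in each of the 12 libraries, in log2 CPM on an axis of its own per gene, with markers for the replicate labels and bars for mean and SD (n = 4). Atf3 and Batf3 are far above the unstimulated level in every stimulated library, and all 4 YFP+ libraries lie below the other 8 for Fos and Jun.

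Fos (ENSMUSG00000021250; chromosome 12, 85473890 to 85477273, plus strand, GRCm38), the founding Fos-type gene, stood at 7.16, 7.87, 6.88 and 9.53 CPM in the unstimulated samples f2, m2, m3 and m4. In YFP- samples it stood at 10.7, 11.5, 7.19 and 9.18 CPM, and in YFP+ samples at 5.50, 3.30, 1.85 and 1.77 CPM, again in the order f2, m2, m3, m4. Unstimulated and YFP- values overlapped, and every YFP+ value was below every other. YFP+ was lower than YFP- by a log2 difference of -1.77 (SE 0.31, adjusted p = 0.0012), a 3.41-fold difference, and than unstimulated samples by -1.48 (adjusted p = 0.00089). YFP- and unstimulated samples differed by 0.28 (95% interval -0.38 to 0.95, adjusted p = 0.46). Fos remained lower in YFP+ in each of 17 alternative analyses, by -2.04 to -1.42 against YFP- (adjusted p = 0.00035 to 0.022).

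The stretch just before the start of Fos is shown because Fos fell together with Jun, whose stretch follows further on. The 250 bases before the RefSeq start of 9 members (no entry for Fosl1) were searched on both strands for the AP-1 site TGACTCA, the cyclic AMP element TGACGTCA and its variant TGACATCA, the first 5 bases TGACG (which overlaps TGACGTCA), the CArG box bound by serum response factor, and TATAAA. Fos (chr12:85473640-85473889, plus strand, GRCm38.p6, RefSeq) is printed 5′ to 3′ up to the base before the start, with matches in capitals.
Fos: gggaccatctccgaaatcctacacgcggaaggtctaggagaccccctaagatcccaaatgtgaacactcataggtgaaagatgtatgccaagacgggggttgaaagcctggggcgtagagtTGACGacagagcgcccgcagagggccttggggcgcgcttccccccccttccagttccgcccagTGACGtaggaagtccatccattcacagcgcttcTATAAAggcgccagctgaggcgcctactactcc
It held TGACG at -129 to -125 and at -66 to -62, counted from the start, and TATAAA at -33 to -28. Of 32851 promoters of the same length, 17.8% held TGACG, 12.4% TATAAA, 4.46% TGACTCA, 2.93% TGACATCA, 1.55% TGACGTCA and 1.47% the CArG box. Fosb held TGACG at -60 to -56, Junb at -106 to -102 and Batf at -98 to -94, and none of the 6 motifs was found before the RefSeq starts of Fosl2, Jund and Batf3. Those windows do not end at the gene starts printed here for every member: the window of Jund lies wholly upstream of its printed gene with a gap between them, and those of Fosl2, Batf3 and Atf3 lie inside the printed gene.

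Fosb (ENSMUSG00000003545; chromosome 7, 19302696 to 19310051, minus strand), a close relative of Fos, was the least abundant member per length in unstimulated samples, with 0.420, 0.421, 0.803 and 0.709 CPM in f2, m2, m3 and m4 (16 to 32 reads). It stood at 2.75, 2.27, 1.87 and 2.43 CPM in YFP- and at 2.0, 1.51, 1.88 and 2.24 CPM in YFP+ samples. Both stimulated groups were above all unstimulated samples and overlapped each other. Fosb rose by 2.01 in log2 in YFP- (SE 0.27, adjusted p = 4.2e-05) and by 1.72 in YFP+ (adjusted p = 8.2e-05), while YFP+ and YFP- differed by -0.29 (95% interval -0.86 to 0.29, adjusted p = 0.48). With a pseudocount of 1 CPM the 2 rises were 1.07 and 0.88, both still called.

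Fosl1 (ENSMUSG00000024912; chromosome 19, 5447547 to 5455946, plus strand), which encodes Fra-1, was close to absent before stimulation, at 0.577, 0.211, 0.552 and 0.0925 CPM in f2, m2, m3 and m4, which are 22, 8, 22 and 3 reads. It reached 3.32, 4.17, 5.28 and 3.61 CPM in YFP- and 5.64, 6.75, 3.56 and 5.94 CPM in YFP+ samples. The stimulated groups overlapped each other and lay wholly above the unstimulated one. Fosl1 rose by 3.77 in log2 in YFP- (SE 0.46, adjusted p = 2.1e-05) and by 4.17 in YFP+ (adjusted p = 3.8e-06), or by 1.91 and 2.24 with a pseudocount of 1 CPM. The YFP+ over YFP- difference was 0.40 (95% interval -0.59 to 1.40, adjusted p = 0.58). Of its 2033 exonic bases, 1163 are also exonic in Ccdc85b on the other strand, which had at most 387 reads in a library and did not rise (-0.30 in YFP-, -0.87 in YFP+). No source used here states whether counting used strand, so reads in shared bases are uncertain.

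Fosl2 (ENSMUSG00000029135; chromosome 5, 32135801 to 32157842, plus strand), which encodes Fra-2, stood at 26.0, 32.7, 37.2 and 28.1 CPM in unstimulated samples f2, m2, m3 and m4. It stood at 34.6, 24.3, 32.6 and 27.7 CPM in YFP- and at 18.0, 17.3, 21.7 and 24.6 CPM in YFP+ samples. The YFP+ group lay below every unstimulated sample but overlapped the YFP- group, where m2 had 24.3 CPM against 24.6 CPM in YFP+ m4. YFP+ was lower than unstimulated samples by -0.61 (SE 0.17, adjusted p = 0.0061). Against YFP- the difference was -0.55 (adjusted p = 0.031), a call that 10 of 17 alternatives lost, among them leaving out f2 (adjusted p = 0.15), m2 (0.084), m3 (0.078) or the YFP- m3 library alone (0.068), and median centring, which gave -0.29 (adjusted p = 0.31). Its adjusted p ran from 0.028 to 0.31 over the alternatives. YFP- and unstimulated samples differed by -0.06 (95% interval -0.41 to 0.30, adjusted p = 0.80).

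Jun (ENSMUSG00000052684; chromosome 4, 95049034 to 95052222, minus strand), the immediate-early Jun-type gene, stood at 54.7, 54.1, 45.2 and 36.5 CPM in unstimulated samples f2, m2, m3 and m4. It stood at 46.1, 57.6, 30.5 and 40.7 CPM in YFP- and at 25.2, 24.5, 12.7 and 17.9 CPM in YFP+ samples. As with Fos, the unstimulated and YFP- groups overlapped and all 4 YFP+ samples lay below both. YFP+ was lower than YFP- by -1.14 (SE 0.24, adjusted p = 0.0043), a 2.20-fold difference, and than unstimulated samples by -1.28 (adjusted p = 0.00040). With no filter on low values the former call was lost (adjusted p = 0.051), the highest of 17 alternatives, of which the lowest was 0.00033. YFP- and unstimulated samples differed by -0.14 (95% interval -0.66 to 0.38, adjusted p = 0.65). The antisense gene Junos shares 232 of the 3189 exonic bases of Jun and had at most 30 reads in a library.

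The stretch before Jun (chr4:95052223-95052472, minus strand, GRCm38.p6, RefSeq) is printed in the same way, in the direction of transcription.
Jun: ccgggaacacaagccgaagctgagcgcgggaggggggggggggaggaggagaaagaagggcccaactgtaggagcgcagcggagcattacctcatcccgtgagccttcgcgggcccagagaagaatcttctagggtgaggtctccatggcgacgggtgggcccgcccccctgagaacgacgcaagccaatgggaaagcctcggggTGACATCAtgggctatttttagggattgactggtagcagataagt
Its match was TGACATCA, at -45 to -38, and it held none of the other 5 motifs.

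Over all genes tested the median YFP+ over YFP- difference was -0.19 on the deposited scale and 0.07 after median centring. With median centring Fos was lower by -1.51 (adjusted p = 0.0015) and Jun by -0.88 (adjusted p = 0.0034). The YFP+ samples also had the lowest mitochondrial shares, as given above, and the part of that in the differences of Fos and Jun was not tested. Leaving out the YFP+ m3 library, with 29.8% of reads on ribosomal RNA features, did not end either call.

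Junb (ENSMUSG00000052837; chromosome 8, 84974484 to 84978718, minus strand), a Jun-type factor that can restrain Jun and pairs with Batf proteins in lymphocytes, was the most abundant member per length in unstimulated samples, with shared exonic bases included in the length. It stood at 138, 151, 123 and 145 CPM in unstimulated f2, m2, m3 and m4, at 333, 326, 296 and 317 CPM in YFP- and at 164, 307, 162 and 283 CPM in YFP+ samples. The YFP- samples were tightly grouped, whereas YFP+ samples m2 and m4 lay near them and f2 and m3 only just above the unstimulated range. Junb rose by 1.20 in YFP- (SE 0.19, adjusted p = 0.00018) and by 0.66 in YFP+ (adjusted p = 0.0084). The second call was lost with no filter (adjusted p = 0.068) and without m4 (0.56, adjusted p = 0.063), and its adjusted p ran from 0.0014 to 0.068 over the alternatives. YFP+ was lower than YFP- by -0.54 (95% interval -0.95 to -0.12), which missed the threshold (adjusted p = 0.061) but passed without ribosomal RNA features in the totals (adjusted p = 0.044), with a range of 0.027 to 0.33 over the alternatives. It was lower in 4 of 4 pairs of samples with the same label. Junb shares 173 of its 2301 exonic bases with Prdx2 on the other strand, which had up to 5330 reads in a library and moved the opposite way (-0.54 in YFP-, -0.68 in YFP+).

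Jund (ENSMUSG00000071076; chromosome 8, 70698949 to 70700616, plus strand), the Jun-type gene known for steady expression, stood at 73.5, 79.2, 73.4 and 79.4 CPM in unstimulated f2, m2, m3 and m4. It stood at 76.2, 65.8, 67.0 and 69.0 CPM in YFP- and at 52.6, 78.9, 86.8 and 105 CPM in YFP+ samples. The 3 groups overlapped, and YFP+ samples were the most spread, with the lowest and highest values of all 12. Differences were -0.14 for YFP- over unstimulated (95% interval -0.51 to 0.23, adjusted p = 0.52), 0.04 for YFP+ over unstimulated (-0.33 to 0.41, adjusted p = 0.86) and 0.18 for YFP+ over YFP- (-0.19 to 0.55, adjusted p = 0.49). The antisense gene Gm11175 covers 877 of its 1668 exonic bases and had 0 reads in all 12 libraries. As with Fosl1, reads in shared bases are uncertain because the strand setting is not stated. The level of Jund per length, and its place below Junb, carry that uncertainty, which was not tested.

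Batf (ENSMUSG00000034266; chromosome 12, 85686669 to 85709087, plus strand) was the one of the 3 remaining genes with a substantial level before stimulation, at 27.6, 31.6, 31.9 and 32.1 CPM in f2, m2, m3 and m4. It stood at 38.1, 33.6, 30.7 and 37.5 CPM in YFP- and at 36.1, 29.3, 30.2 and 24.4 CPM in YFP+ samples. The 3 groups overlapped. Differences were 0.18 for YFP- over unstimulated (95% interval -0.11 to 0.47, adjusted p = 0.29), -0.05 for YFP+ over unstimulated (-0.34 to 0.24, adjusted p = 0.78) and -0.23 for YFP+ over YFP- (-0.52 to 0.06, adjusted p = 0.26).

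Batf3 (ENSMUSG00000026630; chromosome 1, 191097847 to 191108945, plus strand), known above all as a factor that dendritic cells need for their development, stood at 0.236, 0.526, 0.201 and 0.339 CPM in unstimulated f2, m2, m3 and m4 (8 to 20 reads). It reached 14.9, 9.24, 7.56 and 23.5 CPM in YFP- and 18.2, 12.3, 12.2 and 19.8 CPM in YFP+ samples. Every stimulated sample was above every unstimulated one, and YFP+ values fell within the YFP- range. Batf3 rose by 5.31 in YFP- (SE 0.36, adjusted p = 1.6e-07) and by 5.59 in YFP+ (adjusted p = 3.1e-08), or by 3.36 and 3.63 with a pseudocount of 1 CPM. YFP+ over YFP- was 0.29 (95% interval -0.49 to 1.07, adjusted p = 0.61). Of the 4 dendritic cell markers, 3 were under 1 CPM in every sample of each group, and the other, Zbtb46, rose by 3.30 in YFP- and 2.43 in YFP+ samples, where the 4 together reached 13.4 to 17.5 and 5.23 to 11.4 CPM.

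Atf3 (ENSMUSG00000026628; chromosome 1, 191170296 to 191218039, minus strand) had the widest change of the 10. It stood at 2.07, 2.11, 1.41 and 1.42 CPM in unstimulated f2, m2, m3 and m4, at 145, 101, 92.0 and 183 CPM in YFP- and at 255, 176, 82.7 and 254 CPM in YFP+ samples. The stimulated groups overlapped each other, mostly through YFP+ m3, the lowest of all 8 stimulated samples. Atf3 rose by 6.18 in log2 in YFP- (SE 0.33, adjusted p = 2.2e-08), a 72.5-fold difference, and by 6.66 in YFP+ (adjusted p = 3.3e-09), a 101-fold difference, or by 5.53 and 6.01 in log2 with a pseudocount of 1 CPM. YFP+ over YFP- was 0.48 (95% interval -0.23 to 1.20, adjusted p = 0.33), higher in 3 of 4 pairs of samples with the same label. Without the YFP+ m3 library that difference was 0.84 (adjusted p = 0.029), and its adjusted p ran up to 0.77 over the alternatives.

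The stretches before Batf3 (chr1:191098164-191098413, plus strand) and Atf3 (chr1:191183334-191183583, minus strand; GRCm38.p6, RefSeq) are shown because both genes rose in every stimulated sample. The annotation used for positions lets both genes begin farther upstream than these RefSeq starts.
Batf3: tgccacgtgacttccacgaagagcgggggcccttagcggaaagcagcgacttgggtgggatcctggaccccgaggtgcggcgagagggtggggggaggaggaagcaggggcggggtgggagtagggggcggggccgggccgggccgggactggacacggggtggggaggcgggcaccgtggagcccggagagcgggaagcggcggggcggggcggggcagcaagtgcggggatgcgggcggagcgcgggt
Atf3: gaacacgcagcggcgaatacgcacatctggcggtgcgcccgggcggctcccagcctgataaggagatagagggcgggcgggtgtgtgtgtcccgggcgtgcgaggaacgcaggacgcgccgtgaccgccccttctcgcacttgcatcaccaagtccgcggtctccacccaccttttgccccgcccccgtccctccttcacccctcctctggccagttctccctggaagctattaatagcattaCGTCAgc
Atf3 held CGTCA, which is TGACG on the other strand, at -7 to -3. Batf3 held no match, and 76.0% of its 250 bases were G or C, against 65.2% before Atf3 and a mean of 53.2% over all promoters.

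**Figure D2:**
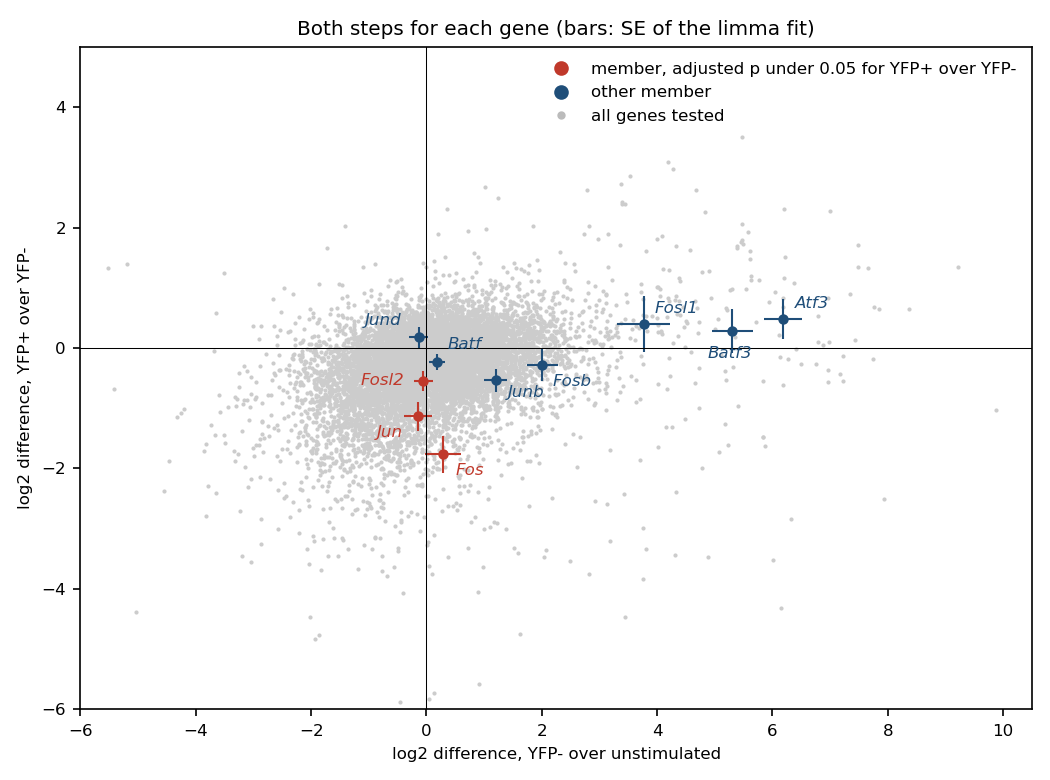
Log2 difference of YFP- over unstimulated samples (horizontal axis) against YFP+ over YFP- (vertical axis), for all 12364 genes tested (grey) and the 10 members (bars: SE). Fos, Jun and Fosl2 (red) sit near 0 on the horizontal axis and below 0 on the vertical one, while Atf3, Batf3 and Fosl1 lie far to the right. Both axes use the YFP- samples, so the points are not independent between axes.

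Compared per length, in RPKM (reads per kilobase of exon, scaled to the library total as CPM is), the order of the members was not the same before and after stimulation. In unstimulated samples it ran Junb (60.5 ± 5.28, SD, n = 4), Jund (45.8 ± 2.04), Batf (21.9 ± 1.5), Jun (14.9 ± 2.7), Fos (3.34 ± 0.505), Fosl2 (3.20 ± 0.513), Atf3 (0.812 ± 0.181), Batf3 (0.204 ± 0.0915), Fosl1 (0.176 ± 0.120) and Fosb (0.0942 ± 0.0317). Ranges of Fos and Fosl2 overlapped, as did those of Batf3, Fosl1 and Fosb, and other neighbours in this order lay apart. In YFP+ samples Junb (99.6 ± 33.3) and Atf3 (89.1 ± 37.9) led with overlapping ranges, followed by Jund (48.5 ± 13.1), Batf (21.3 ± 3.40), Batf3 (9.79 ± 2.48), Jun (6.29 ± 1.86), Fosl1 (2.69 ± 0.667), Fosl2 (2.11 ± 0.352), Fos (1.32 ± 0.741) and Fosb (0.306 ± 0.0487). Besides Junb and Atf3, ranges overlapped between Atf3 and Jund, Batf3 and Jun, Fosl1 and Fosl2, and Fosl2 and Fos. YFP- samples kept Junb (138 ± 7.01), Atf3 (60.5 ± 19.6) and Jund (41.7 ± 2.80) in the lead. By mean, Jun (13.7 ± 3.54) stood above Batf3 (8.64 ± 4.51), and Fos (4.10 ± 0.808) above Fosl2 (3.08 ± 0.484) and Fosl1 (2.01 ± 0.425). Ranges in YFP- samples overlapped between Atf3 and Jund, Jun and Batf3, Batf3 and Fos, Fos and Fosl2, and Fosl2 and Fosl1. By mean, Atf3 was the seventh of the 10 before stimulation and the second in both stimulated groups. Lengths include exonic bases that Fosl1, Jun, Junb and Jund share with other genes, so their places in these orders are uncertain. The orders also depend on the length used. Per longest transcript, mean Fosl2 stood above mean Fos before stimulation and above mean Fosl1 in YFP+ samples.

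Among Fos-type genes the summed level per length was 6.82 ± 0.501 RPKM before stimulation, 9.57 ± 0.563 in YFP- samples and 6.42 ± 0.948 in YFP+ samples. Similar sums in the first and the last hid a different make-up. Fos held 49.1 ± 6.61% of the Fos-type sum before stimulation, 42.7 ± 7.15% in YFP- samples and 20.0 ± 8.92% in YFP+ samples. Fosl1 held 2.65 ± 1.89%, 21.2 ± 4.93% and 41.6 ± 6.55% in the same order, with no overlap between groups. Fosl2 held 46.9 ± 5.57%, 32.2 ± 4.74% and 33.7 ± 9.16%, and Fosb at most 5.92% in any sample. Reads in the exonic bases that Fosl1 shares with Ccdc85b (1163 of 2033) are uncertain, and so are the Fosl1 shares. The shares also depend on the length used. Per longest transcript Fosl2 held 53.6%, 38.1% and 39.5%, and by mean it then stood above Fos before stimulation and above Fosl1 in YFP+ samples.

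Among Jun-type genes Junb held 49.8 ± 1.59% of the sum before stimulation, 71.4 ± 0.653% in YFP- samples and 63.8 ± 6.21% in YFP+ samples. Jun held 12.3 ± 2.05%, 7.03 ± 1.53% and 4.32 ± 1.94%, and Jund 37.9 ± 1.65%, 21.5 ± 1.24% and 31.9 ± 6.95%. The Jun-type sum was 121 ± 7.61, 194 ± 11.5 and 154 ± 41.8 RPKM, far above the Fos-type sum in each group. Within the set of Batf, Batf3 and Atf3, Batf held 95.5 ± 1.12% before stimulation, whereas Atf3 held 63.8 ± 2.83% in YFP- and 71.7 ± 10.2% in YFP+ samples. These shares are RNA and carry no test. Exonic bases shared with other genes, 877 of 1668 in Jund, leave the Jun-type shares uncertain.

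**Figure D3:**
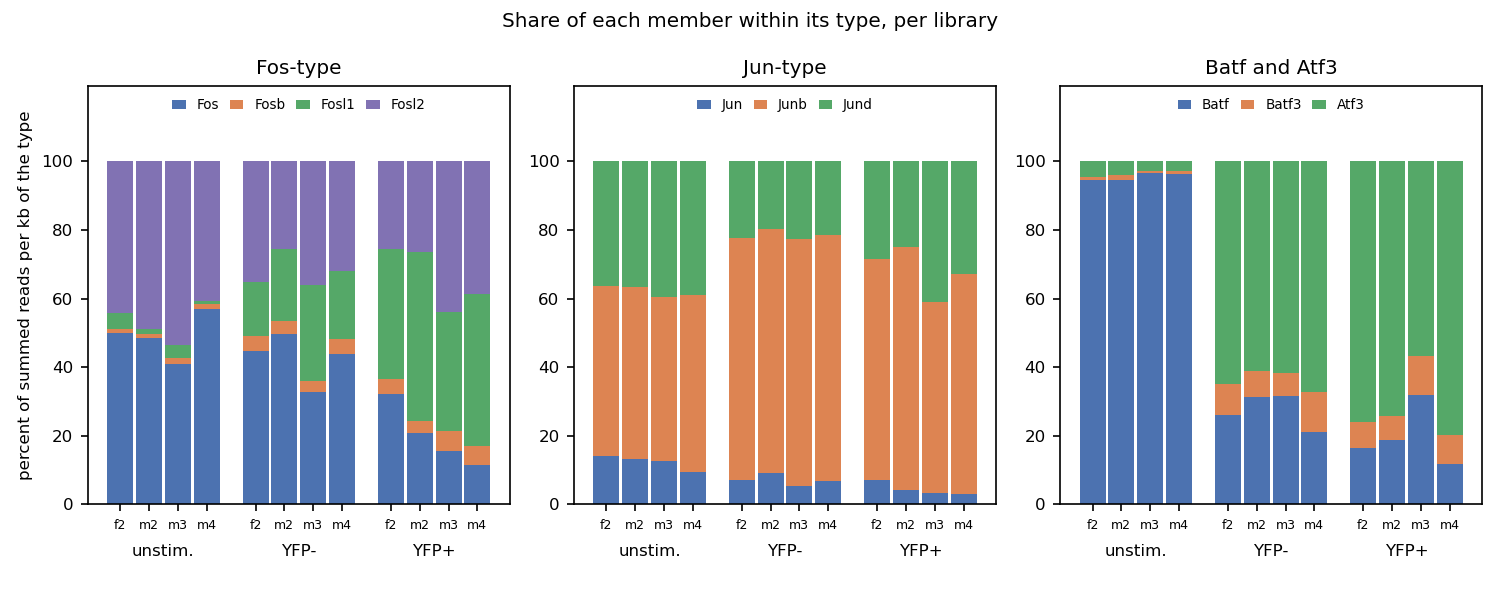
Percent of the summed reads per kilobase of its type held by each member, per library, for Fos-type genes, Jun-type genes, and Batf, Batf3 and Atf3. Fosl1 (green, left) takes 34.5 to 49.2% of the Fos-type sum in YFP+ libraries against 0.639 to 4.66% in unstimulated ones, and Atf3 (green, right) takes over from Batf after stimulation. Lengths include exonic bases shared with other genes, where reads are uncertain. Shares also depend on the length used, and per longest transcript mean Fosl2 stood above mean Fosl1 in YFP+ libraries.

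Measured by the root-mean-square difference of log2 CPM over the 12 samples, after each gene's own mean was removed, the members most like each other were Fosl2 and Batf (0.35), while Fos was nearest to Jun (0.42) and Atf3 to Batf3 (0.61). Over all genes tested, the gene most like Atf3 was Crtam (0.40), which encodes a receptor of activated cytotoxic lymphocytes, followed by Hs3st1 (0.52). For Batf3 it was Il2ra (0.56), the alpha chain of the IL-2 receptor, and then Ccl4 (0.58), a chemokine of activated NK cells. Fosl1 was nearest to Slc17a6 (0.44) and Fcrl1 (0.50), Fosb to Pogk (0.21) and Rdh13 (0.23), and Junb to Crlf2 (0.19), a cytokine receptor subunit, and Reep3 (0.20). Fos was nearest to Ifi209 (0.26) and Inpp5k (0.26), Jun to Prickle3 (0.13) and Kmt2e (0.14), and Fosl2 to Ralgapb (0.15) and Trim24 (0.16). Jund was nearest to Uri1 (0.07) and Ipo8 (0.11), and Batf to Ssu72 (0.11) and Trappc5 (0.12), all of which varied little between groups.

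Batf3 and Atf3 are neighbours on chromosome 1, with 61350 bases between them and no tested gene in that gap, a feature picked out after their values were seen. Of the tested genes within 250 kb, Flvcr1 rose by 1.87 in YFP- and 2.56 in YFP+, and Nenf fell by 1.94 and 1.98. The other tested neighbours moved less, and D730003I15Rik, next to Atf3, differed by -0.28 and -0.63 (adjusted p = 0.54 and 0.15). Fos and Batf lie on chromosome 12 with 209395 bases between them, and Jdp2, a repressor of AP-1, sits in that gap. Jdp2 fell from 4.79 ± 0.376 CPM in unstimulated samples to 1.61 ± 0.274 in YFP- and 1.62 ± 0.529 in YFP+ samples, a pattern unlike that of Fos or Batf.

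Other factors of the same structural class, the basic leucine zipper (bZIP) factors, form pairs among themselves and in part with AP-1 proteins. Of 27 listed, 23 were tested. In YFP- against unstimulated samples 14 were higher and 3 lower, and in YFP+ 14 were higher and 7 lower, where 30.2% of all genes tested were higher and 20.9% lower in YFP-, and 27.5% higher and 33.3% lower in YFP+. Cebpd, at most 0.710 CPM in any unstimulated sample, passed the filter only through the stimulated groups and enters these counts and the medians. With the filter at log2 CPM above 2, 22 were tested, of which 14 were higher and 3 lower in YFP-, and 13 higher and 7 lower in YFP+. The list's median was 0.87 and 0.76, beside 0.14 and -0.03 over all genes. Mafk, a small Maf protein, rose by 2.34 and 2.71 (adjusted p = 6.7e-05 and 9.1e-06), and Cebpb, a regulator of inflammatory genes, by 1.55 and 2.28. Atf5 rose by 1.67 and 1.32, and Nfe2l1, a regulator of proteasome genes, by 1.40 and 1.88. Nfil3, a factor that NK cells need for their development, fell by 1.92 and 2.53, and Maff fell by 0.91 and 1.37.

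Between YFP+ and YFP- samples 1 of the 23 was higher, Nfe2l1 (0.48, adjusted p = 0.014), and 4 were lower, beside 3.28% and 18.5% of all genes, though median centring gave 5 higher and 3 lower. The Nfe2l1 call was lost without m2 (adjusted p = 0.073), m3 (0.073) or m4 (0.081). Maf stood at 9.46 to 14.2 CPM before stimulation, at 9.10 to 11.4 CPM in YFP- samples and at 1.51 to 2.35 CPM in YFP+ samples, a fall by 2.27 between the stimulated groups (adjusted p = 6.0e-06). Bach2, a repressor that competes with AP-1 factors for DNA sites in lymphocytes, stood at 6.40 to 9.39, 15.7 to 21.6 and 4.21 to 6.12 CPM. It was higher in all YFP- samples than in any other, and fell by 1.85 from YFP- to YFP+ (adjusted p = 1.4e-05). Creb1, a factor of the cyclic AMP element, fell by 0.97 (adjusted p = 0.00097). Maf values, like those of Fos and Jun, were lower in all 4 YFP+ samples than in the other 8.

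Kinases and factors upstream of AP-1, among them some that limit it, such as Fbxw7, which targets Jun for destruction, were taken as a list of 26, all tested. In YFP- against unstimulated samples 4 were higher and 7 lower, in YFP+ 6 were higher and 9 lower, and between YFP+ and YFP- 0 were higher (1 at an unadjusted p under 0.05 in limma, and 1 called with voom weights) and 5 were lower. Of all genes tested, 51.1%, 60.8% and 21.8% were called in these comparisons, so these counts are not read as a result about the list. Its median was -0.04, -0.12 and -0.12, beside 0.14, -0.03 and -0.19 over all genes. Mapk11, which encodes p38 beta, had 0 to 6 reads in unstimulated libraries and stood at 2.26 to 3.39 CPM in YFP- and 0.635 to 4.39 CPM in YFP+ samples. Mapk11 passed the filter only through the stimulated groups and is among the genes counted as higher in both. Map2k3, a kinase that activates p38, rose by 2.26 and 2.07, and Mapk8, which encodes JNK1, a kinase of Jun, by 1.2 and 1.1. Mapk3, which encodes ERK1, fell by 1.52 in YFP- and by 2.81 in YFP+ samples, with a YFP+ over YFP- difference of -1.30 (adjusted p = 0.00062). Rasgrp1, which links receptors to Ras and ERK, fell by 1.17 and 2.48, with a difference of -1.30 between the stimulated groups (adjusted p = 0.00016). Map3k1 fell by 1.22 and 1.33. Map2k6 differed by -0.73 in YFP- (adjusted p = 0.24) and fell by 1.41 in YFP+ samples (adjusted p = 0.025). The latter call was lost in 6 alternatives, among them leaving out m2, m3 or the YFP+ m3 library (adjusted p = 0.071, 0.074 and 0.072). With the filter at log2 CPM above 2, Map2k6 was not tested. Map3k8 was lower in YFP+ than in YFP- by -1.34 (adjusted p = 0.0097), a call lost without m4 (adjusted p = 0.083).

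Partners that bind beside AP-1 or Batf at composite sites were a list of 7, all tested. In YFP- against unstimulated samples 2 were higher and 3 lower, in YFP+ 2 were higher and 4 lower, and between the stimulated groups 0 were higher (1 at an unadjusted p under 0.05 in limma, and 1 called with voom weights) and 4 were lower. Of all genes tested, 51.1%, 60.8% and 21.8% were called in these comparisons. The list's median was 0.04, -0.69 and -0.59, beside 0.14, -0.03 and -0.19 over all genes. Irf4, the partner of Batf proteins in activated lymphocytes, stood at 1.42 to 3.36 CPM before stimulation, at 28.2 to 36.4 CPM without reporter signal and at 43.1 to 53.6 CPM with it. It rose by 3.90 and 4.44 (adjusted p = 2.5e-08 and 2.4e-09), and its YFP+ over YFP- difference of 0.53 missed the threshold (adjusted p = 0.092) although the groups did not overlap. Irf8, the other such partner, rose by 1.37 and 1.39 from a high level of 683 to 1044 CPM. Nfatc2 and Nfatc3, calcium-dependent partners of Fos and Jun, fell by 1.18 and 1.0 in YFP- and by 1.88 and 1.59 in YFP+ samples. Runx3, a factor of cytotoxic lymphocytes, fell by 0.95 and 2.02, and Ets1 was lower in YFP+ than in YFP- by -0.73 (adjusted p = 0.0017).

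Genes with AP-1 sites known from textbooks were a list of 11, of which Mmp9, Plaur and Timp1 did not pass the filter. Csf2, Plau and Ccnd1 were below the filter's level in every unstimulated sample and passed only through the stimulated groups. Of the 8 tested, 7 were higher in YFP- and 7 in YFP+ than in unstimulated samples, and 0 were lower (0 also at an unadjusted p under 0.05 in limma and with voom weights), where 30.2% of all genes were higher in YFP- and 27.5% in YFP+. All these counts were made after the filter. With no filter 11 were tested, of which 8 were higher and 0 lower in YFP-, and 9 higher and 1 lower in YFP+. The median of the 8 was 3.42 and 4.01, beside 0.14 and -0.03 over all genes. Csf2, which encodes the cytokine GM-CSF, had 0 to 6 reads in unstimulated libraries and stood at 8.47 to 19.8 CPM in YFP- and 14.1 to 31.8 CPM in YFP+ samples. Il2ra rose by 5.32 and 5.01, and Tnf, which encodes tumour necrosis factor, by 4.40 and 4.95. Fasl, the death ligand of cytotoxic lymphocytes, did not pass (0.39 and -0.18, adjusted p = 0.17 and 0.52), though it was called higher in YFP- with only the 8 samples compared, without m3 and without the YFP+ m3 library, each of which gave 8 of 8 higher there. Between the stimulated groups, where 3.28% of all genes were higher and 18.5% lower, Tnf (0.55, adjusted p = 0.037) and Il2 (0.77, adjusted p = 0.045) were higher and Cd69, an early activation marker, lower (-0.53, adjusted p = 0.040) in YFP+. These 3 calls are fragile: Il2 lost its call without any 1 of f2, m2, m3 and m4 (adjusted p = 0.11, 0.089, 0.16 and 0.051), Tnf without f2 (0.14), m2 (0.19), m4 (0.067) or the YFP- m3 library (0.065), and Cd69 without f2 (0.071), m2 (0.12), m4 (0.18) or the YFP+ m3 library (0.078).

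**Figure D4:**
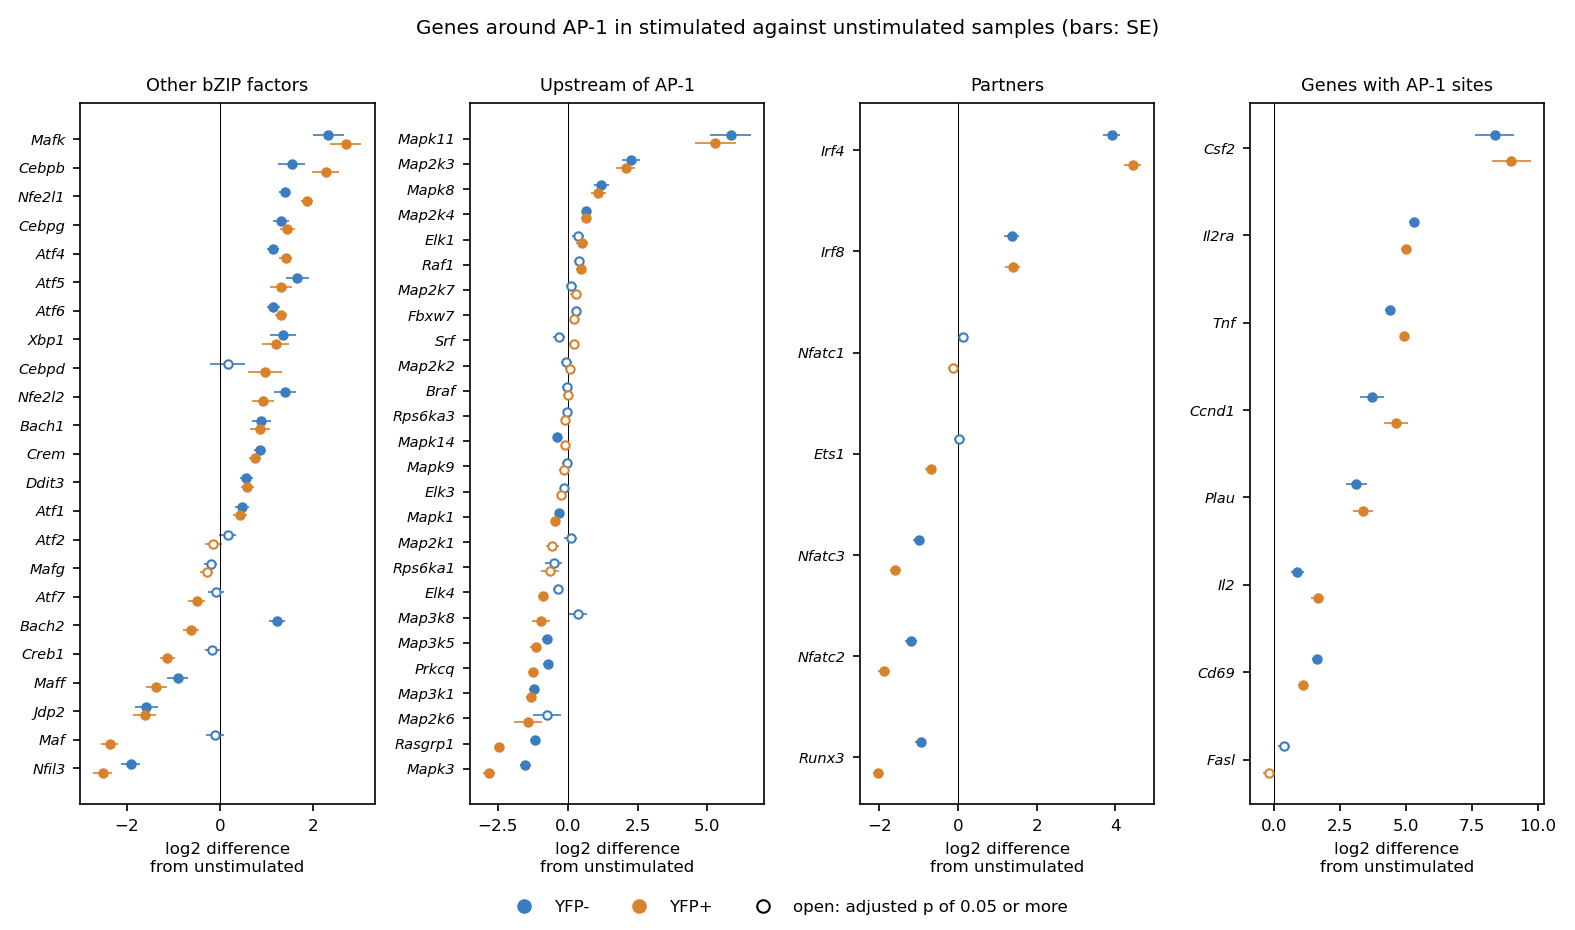
Log2 difference from unstimulated samples of the tested genes of 4 lists, in YFP- (blue) and YFP+ samples (orange), with bars for the SE and open symbols where the adjusted p in limma was 0.05 or more. Irf4, Il2ra, Tnf and Csf2 are far to the right in both groups, and Maf, Mapk3 and Runx3 are farther to the left in YFP+ than in YFP-.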

How the data were processed

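The deposited file is a table of log2 CPM per gene, moderated by a prior, for 12 samples, with Ensembl identifiers and symbols, per the file headers. Per the labels' protocols, a SMARTer Ultra Low kit turned RNA into cDNA, which was read as paired ends. Per the submitters' processing notes, the tools were bcl2fastq, STAR 2.7.9a, Subread and featureCounts 2.0.3, and the build was GRCm38; strand setting and annotation are not given in the sources used here. The deposited values match, to within 5.15e-14, the log2 of reads plus a prior of 0.5 reads (scaled to the library total) over the total, with no further scaling, so whole reads were recovered for 100% of values (tolerance 0.001 reads). No molecular identifiers are named, so precision covers counting error only. Of 55774 lines, 287 repeats were dropped.

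All 12 samples were fitted together on the log2 values in limma 3.58.1 (R 4.3.3; lmFit, contrasts, eBayes with trend), 1 coefficient per group, for genes above 0 in at least 4 samples, with Benjamini-Hochberg adjustment over 12364 genes per comparison and a threshold of 0.05. SD is over the 4 samples of a group, while SE and 95% intervals come from the limma fit. Its spread is pooled over all 12 samples and moderated across genes, so a gene has the same SE in all 3 comparisons. For Junb that SE was 0.19, where the SD in log2 was 0.074 in YFP- and 0.495 in YFP+ samples. The fit was tested on simulated data. Exon lengths and positions come from GENCODE M21. Other steps used Python 3.11.15 with pandas 2.3.3 and numpy 2.4.6.

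Members and lists were chosen with earlier results of these data known. Named besides the members are, per list and comparison, the 3 largest called rises and falls with 1 direction in all 4 label pairs, the 2 genes most like each member, and Ifng. Of the cell type markers that met this rule only some are named. Fasl, Zbtb46, Cebpd, genes that overlap or neighbour members, and genes under the filter were named after their values were seen. Alternatives covered a replicate block, the samples fitted, filters, pseudocount, scaling, weights, trend and leaving out samples; leaving out the YFP+ or the YFP- m3 library was chosen after seeing the data.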

Additional observations from a re-analysis of the deposited data

Results flagged for a closer look

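In unstimulated samples Batf was lowest in f2, at 27.6 CPM, against 31.6 to 32.1 CPM in m2, m3 and m4. The gap from f2 to the nearest other sample was 0.912 of the whole range of the 4 values on the log2 scale, past the 95% limit for a set of 4. It was the 1 such set among the 30 sets of 4 values (10 genes in 3 groups), where chance gives about 1 in 20.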

How the results depend on the processing

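Over 30 member results (10 genes, 3 comparisons) and up to 17 alternatives, 475 of 507 values kept direction and call, 13 lost a call, 3 gained one and 16 changed sign, and 18 of the 30 results held throughout. Sign changes were of values that were not called, which ran from -0.29 (Fosb, YFP+ over YFP-) to 0.18 (Batf, YFP- over unstimulated) in the main fit. Their cause was not tested. Quantile normalization gave Fosb 0.071 (YFP+ over YFP-), Jund -0.11 (YFP+ over unstimulated) and Batf -0.026 (YFP- over unstimulated). Without ribosomal RNA features Jund was -0.15 (YFP+ over unstimulated) and Batf -0.00163 (YFP- over unstimulated). Batf over unstimulated in YFP+ was 0.074 after centring on medians, 0.030 under trimmed-mean scaling and 0.035 under voom weights, and over YFP- it was 0.033 after centring. Leaving out samples gave, for YFP- over unstimulated, -0.21 to 0.066 for Fosl2 (positive without m2) and -0.24 to 0.019 for Jun (positive without m3 or the YFP- m3 library). For YFP+ over unstimulated it gave -0.083 (without m4) to 0.21 for Jund and -0.19 to 0.065 (without m4) for Batf.

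With no filter, where 55487 features share the adjustment, 1 member (Fos) was called between YFP+ and YFP- in place of 3, and 1583 genes in place of 2691. Leaving out samples gave 1571 (without m2) to 2708 genes. The main split of 405 higher and 2286 lower became 1505 and 1491 under centring, 1163 and 1430 under quantile normalization, and 1169 and 1679 under trimmed-mean scaling. Over unstimulated samples, YFP- went from 3735 higher and 2586 lower to 3072 and 3444 without ribosomal RNA features and 3273 and 3291 with centring. Per longest transcript, Junb held 55.8% (unstimulated), 76.1% (YFP-) and 69.1% (YFP+) of the Jun-type sum. Fosl2 held 53.6%, 38.1% and 39.5% of the Fos-type sum in the same order. Fosl1 shares by that length are not given. The longest Fosl1 transcript has 1864 bases and that of Fosl2 6537, against exon lengths of 2033 and 9680. By that length mean Fosl2 stood above mean Fosl1 in YFP+ samples, so the Fosl1 lead there holds only for the exon lengths used above. Before stimulation mean Fosl2 then stood above mean Fos. Of 79 results of list and marker genes that met the rule for large called changes, 64 kept their call throughout.

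With the replicate label as a block (replicate block), Junb was also called lower in YFP+ than in YFP- (-0.54, adjusted p = 0.027), so 4 members were called in place of 3, and the Tnf call was lost (adjusted p = 0.054). It called 3098 genes there, 6682 for YFP- and 7774 for YFP+ over unstimulated samples. No source used here says that a shared label (f2, m2, m3, m4) marks a shared mouse. Between YFP+ and YFP- samples the deviations of same-label samples correlated at 0.054, 0.35, 0.37 and 0.17 in that order, so that not every pair passed 0.1, and 6 of 8 samples correlated best with their own label between YFP+ and YFP-, 4 and 2 of 8 in the comparisons of YFP+ and YFP- with unstimulated samples.

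Depth limits Fosb, Fosl1 and Batf3 before stimulation, at 3 to 32 reads per library.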
